A study of Homo sapiens with 4 samples.

Results

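The genes described here are those of regulated exocytosis, the fusion of vesicles with a target membrane, in LNCaP cells with and without the ETS transcription factor ERG. They were taken by symbol: the numbered synaptotagmins, syntaxins and syntaxin-binding proteins, the synaptotagmin-like proteins, the SNAP25 family, the VAMPs, CADPS and UNC13 proteins, RIMS proteins, complexins, Rab3 and Rab27, SV2 proteins, NSF and its NAP adaptors, synaptophysin and the granins. This gave 101 of 19583 genes, read by 234 of 39464 probe sets that name a single gene. The symbol prefix for Rab3 also took in 12 GTPases of the Rab30 to Rab39 group, and the prefixes took in 4 non-coding RNAs (RAB30-DT, STX17-DT, STXBP5-AS1 and SYT9-AS1). The remaining 85 genes belong to the named families, and 9 of them are syntaxins of endosomes, the Golgi apparatus and the endoplasmic reticulum rather than of exocytosis. LNCaP is an androgen-responsive human prostate cancer line, and the study asked how ERG, which is overexpressed in prostate cancers with the TMPRSS2 fusion, alters its function. There were 2 arrays of cells that received a lentivirus with ERG and red fluorescent protein (LNCap ERG) and 2 arrays of cells that received the vector with the fluorescent protein alone (LNCap Vector). Both were kept in the same serum-containing medium and seeded the day before RNA was taken. Whether the arrays within a group are separate cultures is not stated in the sources used here, so the p-values measure no more than array-to-array spread, possibly technical.

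A vesicle fuses when a SNARE on its membrane, a VAMP, zippers together with a syntaxin and a SNAP25-type SNARE on the target membrane. Rab3 and Rab27 GTPases and their effectors tether the vesicle, CADPS, UNC13 and RIMS proteins prime it, tomosyns and complexins hold or clamp the SNAREs, synaptotagmins trigger fusion on calcium entry, and the ATPase NSF with its adaptors takes the spent complexes apart. In neurons and neuroendocrine cells this machinery releases transmitter and peptide granules, whose matrix is made by granins. CHGA and SYP are the markers by which neuroendocrine prostate tumours are recognised.

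Promoter sequence is shown for SYT4 and STXBP5L, which had the smallest p-values of the members beside CADPS2, and for RAB30, whose start lies beside that of the non-coding member RAB30-DT. Each run is the 250 bases before the gene's start in RefSeq on GRCh38.p14, in the direction of the gene, in lower case, with capitals for GGAA, the core that ETS factors such as ERG recognise, or for TTCC, the same core on the opposite strand. The SYT4 run is chr18:43277491-43277740 on the minus strand, the STXBP5L run chr3:120907955-120908204 on the plus strand, and the RAB30 run chr11:83071898-83072147 on the minus strand, at the outermost of 3 RefSeq starts. CADPS2 has no entry in the table used.
SYT4: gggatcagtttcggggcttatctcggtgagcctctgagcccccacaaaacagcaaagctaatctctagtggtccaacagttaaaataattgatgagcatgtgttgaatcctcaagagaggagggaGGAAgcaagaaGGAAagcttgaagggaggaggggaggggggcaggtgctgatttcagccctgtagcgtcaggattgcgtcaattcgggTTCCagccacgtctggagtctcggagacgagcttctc
STXBP5L: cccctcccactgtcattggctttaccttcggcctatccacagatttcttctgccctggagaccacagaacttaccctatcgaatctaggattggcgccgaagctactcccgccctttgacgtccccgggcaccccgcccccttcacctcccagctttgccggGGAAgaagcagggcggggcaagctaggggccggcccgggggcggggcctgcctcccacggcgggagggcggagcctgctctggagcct
RAB30: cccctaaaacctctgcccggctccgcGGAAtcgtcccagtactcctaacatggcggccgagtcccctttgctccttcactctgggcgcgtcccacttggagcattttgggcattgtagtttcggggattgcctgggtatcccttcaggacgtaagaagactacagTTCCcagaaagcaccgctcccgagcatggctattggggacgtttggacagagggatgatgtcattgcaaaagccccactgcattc

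SYT4 held GGAA in 2 places and TTCC in 1, STXBP5L held GGAA once, and RAB30 held each once. The core is short and common: 92.7% of all 35116 such windows in the table held it on either strand. So did 109 of the 113 windows (96.5%) of the 77 members found there. The median count of the core in a window was 3 over all windows and 2 over those of the members. The longer form CCGGAA, which contains the core, was in 14.5% of all windows and 23 of the members' 113 (20.4%). None of the 3 runs shown held it. These matches describe letters and not binding. The starts of RAB30 and RAB30-DT lie 169 bases apart and face away from each other.

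The authors' intensities were taken to log2, and each gene was read by its brightest probe set. The arrays within a group differed by an SD of 0.18 (LNCap ERG) and 0.19 (LNCap Vector) on the log2 scale over all genes. The luminal prostate genes measured (KLK3, KLK2, TMPRSS2, HOXB13, FOLH1, KRT8 and KRT18) were bright in every array, and the basal genes KRT5 and KRT14 and the leukocyte genes CD3E and PTPRC were dim in every array. The 4 probe sets of ERG stayed between log2 intensities of 2.65 and 3.58 with log2 fold changes of -0.24 to 0.12, so ERG does not check the labels, and whether those probe sets can read the transduced gene is not known here. As a guide to the signal of silent genes, 42 genes listed for other organs had a median of 3.32 and a 90th percentile of 5.25. Not all of them were silent here, since KRT10 stood at 11.06, so the level is a rough guide only. A probe set at or below 5.25 is called dim in what follows, and a change in which either group is dim gives no exact size. A dim gene is not shown to be silent. Both group means were dim for 49 of the 101 members and for 9559 of all 19583 genes. At the 95th percentile of the same genes, 6.37, 40 members had both group means above the level, CADPS2, SYT4 and RAB3A had 1, and 58 had none, RAB30 and SYT7 among them. STXBP5L had both above at either level.

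No member passed an adjusted p of 0.05 in limma's moderated test over all genes, against 0.00511% of all genes higher and 0.00511% lower. With p under 0.05 before adjustment, 6 of the 101 members were higher in the LNCap ERG arrays and 7 were lower, where 5.61% of all genes were higher and 4.11% lower. Both LNCap ERG arrays lay above both LNCap Vector arrays for 20 members and below them for 18, and the same held for 21.7% and 19.1% of all genes. The median log2 fold change was -0.01 over the members and 0.01 over all genes. A log2 fold change of at least 0.5 in size was reached by 5 members, which is 4.95% of them against 1.11% of all genes: CADPS2, SYT4 and STXBP6 were lower, and STXBP5L and RAB30 were higher. With each array left out in turn, the log2 fold change ran from 0.58 to 1.01 for RAB30 and from 0.30 to 0.51 for RAB3A. For RAB27B it ran from -0.42 to -0.29. These fits reuse the arrays by which the 13 members were called, so they are no separate check. In the same fits RAB3B ran from -0.23 to -0.20, RAB3GAP1 from -0.32 to -0.19 and RAB36 from 0.16 to 0.31. RIMS2 ran from 0.20 to 0.33 and SYP from -0.68 to -0.22. Not every call held in these fits, which have 1 residual degree of freedom, so a lost call is not laid to a single array. The middle of the list was quiet, with 89 members under 0.25 in size, or 88.1% of them, close to the 88.9% of all genes.

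**Figure D1:**
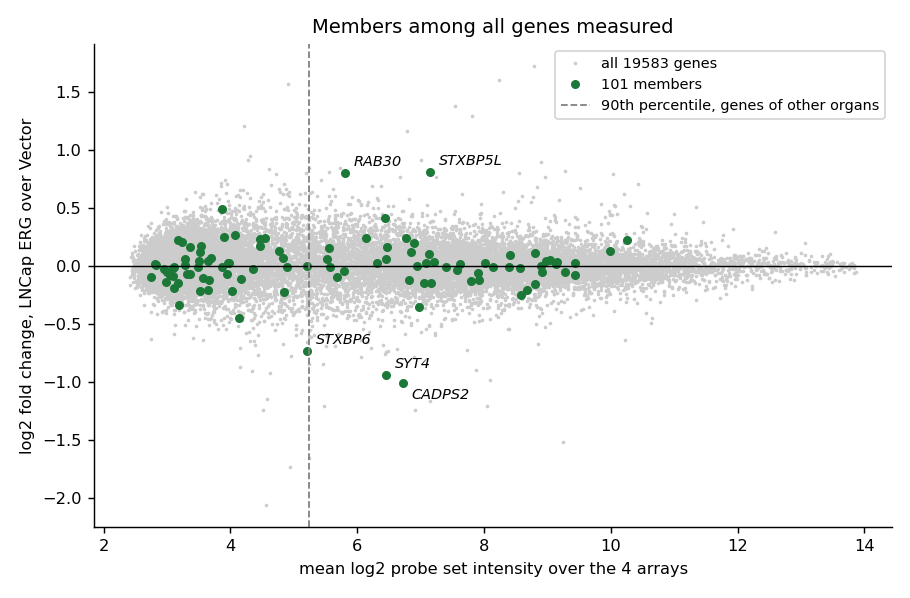
Log2 fold change of LNCap ERG over LNCap Vector (y axis) against the mean log2 probe set intensity over the 4 arrays (x axis) for all 19583 genes (grey) and the 101 members (green). The dashed line marks 5.25, the dim level, and the 5 members beyond 0.5 in size are named, from CADPS2 at -1.01 to STXBP5L at 0.80.

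The largest difference of the list was in a priming factor. CADPS2, which primes dense-core vesicles before fusion, had log2 intensities of 6.34 and 6.08 in the LNCap ERG arrays and 7.18 and 7.27 in the LNCap Vector arrays. Both LNCap ERG arrays lay below both vector arrays, and the gap between the groups was wider than the gap within either. The level was 2.01-fold lower with ERG (log2 fold change -1.01, standard error 0.11, unadjusted p = 2.4e-04, adjusted p = 0.16 from limma). CADPS2 was read by 1 probe set. Its paralog CADPS was dim in every array, at 3.41 and 3.26 against 3.10 and 3.17.

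Among the other priming factors, the brightest probe set of RIMS1, a scaffold of the site of release, stood at 9.40 ± 0.03 with ERG and 9.48 ± 0.03 with vector (SD, n = 2 in each group). That of UNC13B, a Munc13 protein that opens syntaxin for SNARE assembly, stood at 8.39 ± 0.001 and 8.41 ± 0.03 (SD, n = 2 in each group). Neither differed by more than 0.09. UNC13D, the Munc13 of granule release in blood cells, was dim in every array but separated, at 4.16 and 4.05 with ERG and 3.68 and 3.55 with vector (log2 fold change 0.49, unadjusted p = 0.0025, adjusted p = 0.30). Its other 2 probe sets had -0.05 and 0.01. RIMS2, also dim, had 4.14 and 4.27 against 3.89 and 3.998 (log2 fold change 0.26, adjusted p = 0.46), and its other probe sets had the opposite sign, at -0.17 and -0.34. The complexins, which bind assembled SNAREs, had log2 fold changes of 0.15 (CPLX1) and 0.16 (CPLX2), and CPLX2 was dim. At an unadjusted p under 0.05, 2 of the 11 priming factors and complexins were higher, UNC13D and RIMS2, both dim, and CADPS2 was lower, where 5.61% of all genes were higher and 4.11% lower. Of the 11, 7 were dim in both groups.

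Of the 15 synaptotagmins, 13 were dim in both groups, among them SYT1, the calcium sensor of fast transmitter release, which stood between 2.73 and 2.91 in all 4 arrays. The exceptions were SYT4 and SYT7. SYT4, a synaptotagmin of dense-core and secretory granules, had log2 intensities of 6.05 and 5.91 in the LNCap ERG arrays against 6.89 and 6.95 in the LNCap Vector arrays. The groups were clearly apart, and the level was 1.92-fold lower with ERG (log2 fold change -0.94, standard error 0.09, unadjusted p = 9.4e-05, adjusted p = 0.12), the smallest p of all members. SYT4, too, was read by 1 probe set. SYT7, a slow, high-affinity calcium sensor, had 6.35 and 6.16 against 5.98 and 6.06, a log2 fold change of 0.24 that missed an unadjusted p of 0.05 (limma's adjusted p = 0.53). Its 5 probe sets ran from -0.17 to 0.26.

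The synaptotagmin-like proteins bind Rab27 on granules. SYTL1 was the only one of the 5 above the dim level, at 7.09 ± 0.12 with ERG and 7.07 ± 0.13 with vector (SD, n = 2 in each group). SYTL4, at the dim level, had 5.27 and 5.15 against 5.27 and 5.16. SYTL5 was near the floor of the arrays, at 3.01 and 3.03 with ERG and 3.36 and 3.37 with vector (log2 fold change -0.34, unadjusted p = 0.0055, adjusted p = 0.35). Its second probe set had -0.09.

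**Figure D2:**
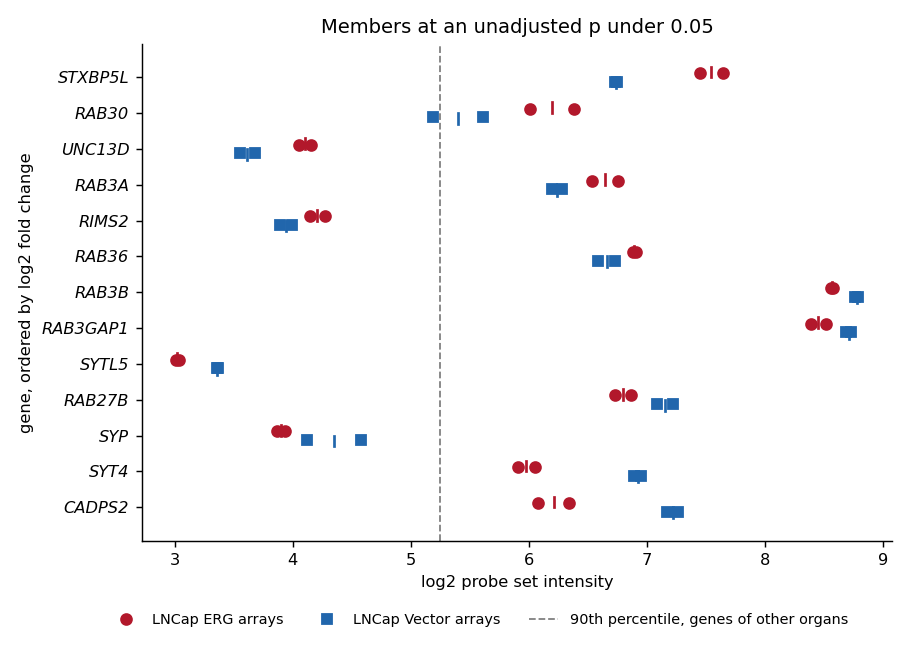
The 13 members at an unadjusted p under 0.05 (y axis, ordered by log2 fold change) with their log2 probe set intensity (x axis). Circles are the 2 LNCap ERG arrays, squares the 2 LNCap Vector arrays and short vertical ticks the means, and a dashed line marks the dim level, 5.25; in none of the 13 do the groups overlap, and UNC13D, RIMS2, SYTL5 and SYP lie left of the dashed line in every array.

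The syntaxin-binding proteins held differences in both directions. STXBP5L, or tomosyn-2, carries a VAMP-like motif and occupies syntaxin and SNAP25 so that vesicles do not fuse. It had log2 intensities of 7.45 and 7.64 in the LNCap ERG arrays and 6.74 and 6.75 in the LNCap Vector arrays. The 2 vector arrays were nearly equal and both LNCap ERG arrays lay above them, 1.75-fold on average (log2 fold change 0.80, standard error 0.10, unadjusted p = 3.1e-04, adjusted p = 0.18). A second STXBP5L probe set had a log2 fold change of 1.03, at 6.51 and 6.71 against 5.53 and 5.63, and the third, dim, had 0.15. The related tomosyn STXBP5 was dim, at 3.33 and 3.48 against 3.50 and 3.75.

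STXBP6, or amisyn, another protein with a VAMP-like motif, is named after its values were seen, since it did not meet an unadjusted p of 0.05. It stood at 4.32 and 5.36 with ERG and 5.42 and 5.73 with vector. The 2 LNCap ERG arrays differed from each other by more than the groups did, so the log2 fold change of -0.74 (standard error 0.34, unadjusted p = 0.082, adjusted p = 0.56) rested mainly on the first: without it the value was -0.22. The LNCap ERG mean of 4.84 was dim, so the change has no exact size. The other STXBP6 probe sets had -0.19, -0.12 and 0.10. STXBP3, the Munc18 protein of many epithelial cells, had 8.73 ± 0.20 with ERG and 8.89 ± 0.04 with vector (SD, n = 2 in each group). The log2 fold change was -0.16 (adjusted p = 0.70). STXBP2, the Munc18 of granule release in blood cells, had a log2 fold change of -0.01.

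The core SNAREs differed little. For the 9 plasma membrane syntaxins and SNAP25-type SNAREs measured, log2 fold changes ran from -0.22 (STX1A, dim) to 0.10 (STX4). None had an unadjusted p under 0.05, where 5.61% of all genes were higher and 4.11% lower. At that share, the lack of a call among 9 genes does not set the class apart. SNAP23, the SNAP25 homologue of non-neuronal cells, stood at 9.07 ± 0.004 with ERG and 9.03 ± 0.01 with vector (SD, n = 2 in each group), and STX3, the syntaxin of apical membranes, at 9.17 ± 0.03 and 9.14 ± 0.10 (SD, n = 2 in each group). The neuronal forms were dim: the brightest SNAP25 probe set gave 2.90 and 3.30 with ERG and 3.17 and 3.04 with vector. STX1A gave 4.54 and 4.91 against 4.79 and 5.11, with overlap.

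The 9 syntaxins of endosomes, the Golgi apparatus and the endoplasmic reticulum were all above the dim level. None had an unadjusted p under 0.05, which again does not set 9 genes apart from the 5.61% and 4.11% of all genes. STX16 and STX6, which serve traffic between endosomes and the trans-Golgi network, had log2 fold changes of 0.02 and 0.04, at 9.15 ± 0.01 against 9.13 ± 0.12 for STX16 and 8.998 ± 0.02 against 8.96 ± 0.13 for STX6 (SD, n = 2 in each group). STX7, of late endosomes, had the largest of the class, 0.19, at 7.001 and 6.98 against 6.76 and 6.84 (limma's adjusted p = 0.53).

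The VAMPs of general and epithelial secretion were bright, and that of synapses was not. VAMP8, an endosomal and secretory granule SNARE of exocrine cells, had 10.40 and 10.33 in the LNCap ERG arrays and 10.21 and 10.07 in the LNCap Vector arrays. The LNCap ERG arrays were above the vector arrays, by 0.22 on the log2 scale (standard error 0.09, limma's adjusted p = 0.52). VAMP3, of recycling endosomes, had 0.13 (10.05 ± 0.08 against 9.93 ± 0.04, SD, n = 2 in each group) and was not distinguished by the test (adjusted p = 0.67). VAMP2, of synaptic vesicles, was dim, at 5.13 and 4.64 against 4.88 and 4.90. The disassembly ATPase NSF stood at 9.44 ± 0.12 and 9.42 ± 0.09 (SD, n = 2 in each group). Its adaptors NAPA, NAPB and NAPG had log2 fold changes of -0.13, 0.16 and -0.15. None of these was at an unadjusted p under 0.05, where 5.61% of all genes were higher and 4.11% lower. NAPA had 7.82 and 7.64 against 7.90 and 7.82.

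**Figure D3:**
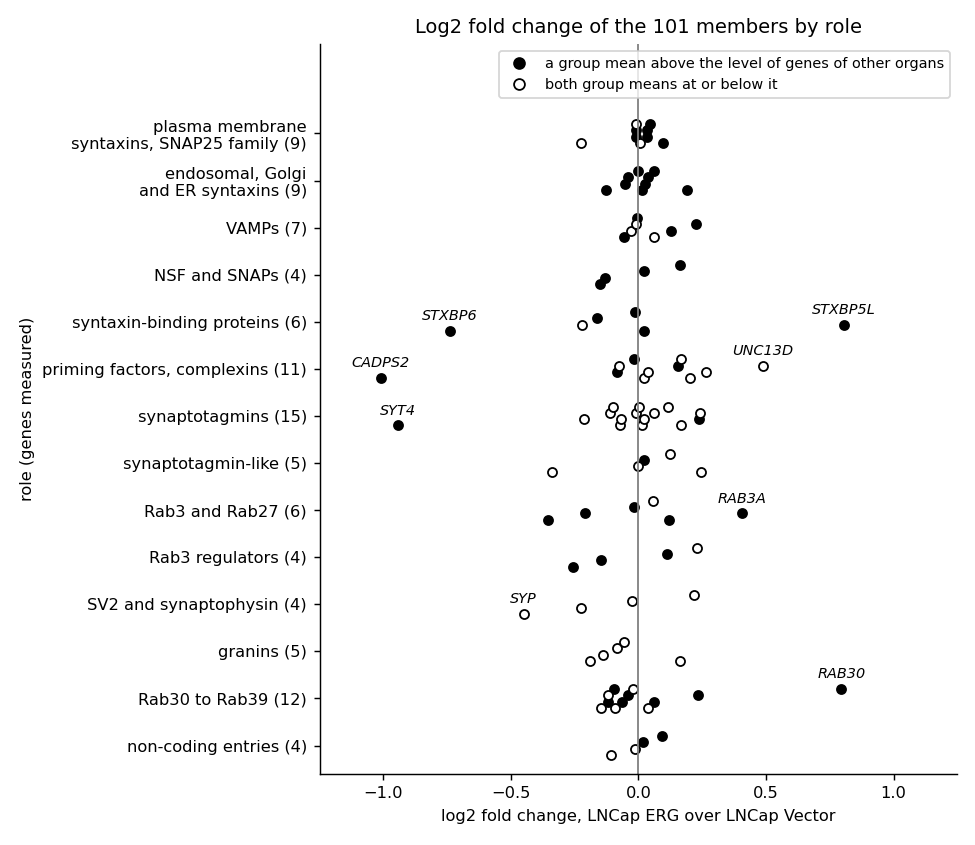
Log2 fold change of LNCap ERG over LNCap Vector (x axis) of the 101 members, grouped by role with the number of genes in each (y axis). Filled circles have a group mean above the dim level and open circles have none; the SNARE classes lie within -0.22 and 0.22, while the members beyond 0.4 in size are named and fall among the priming factors, synaptotagmins, syntaxin-binding proteins, Rabs and synaptophysin.

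The Rab3 and Rab27 GTPases differed in both directions. RAB3A, the Rab3 of neurons and endocrine cells, had log2 intensities of 6.75 and 6.54 with ERG and 6.28 and 6.20 with vector, a log2 fold change of 0.41 (standard error 0.10, unadjusted p = 0.0099, adjusted p = 0.37). RAB3B, a Rab3 of epithelial cells, was lower: it had 8.56 and 8.58 against 8.76 and 8.79 (log2 fold change -0.21, standard error 0.08, unadjusted p = 0.036, adjusted p = 0.47). All 5 of its probe sets had the same sign, from -0.22 to -0.06. RAB27B, which docks secretory granules and exosome-bearing bodies, had 6.73 and 6.87 against 7.09 and 7.22, so that the groups did not overlap (log2 fold change -0.35, standard error 0.09, unadjusted p = 0.012, adjusted p = 0.38). Its 2 dim probe sets had 0.25 and 0.14, and the mean of all 3 had 0.01. RAB3D stood at 8.56 ± 0.03 and 8.57 ± 0.03 (SD, n = 2 in each group), and RAB27A had a log2 fold change of 0.12 with overlapping groups. Between any of these GTPases the difference of the changes was not tested.

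RAB3GAP1 and RAB3GAP2 are the catalytic and the accessory subunit of the complex that turns Rab3 off. RAB3GAP1 had 8.39 and 8.52 with ERG and 8.69 and 8.74 with vector (log2 fold change -0.26, standard error 0.08, unadjusted p = 0.028, adjusted p = 0.45), and its other 3 probe sets were nearer 0, at -0.08, -0.06 and -0.03. RAB3GAP2 had 8.87 and 8.86 against 8.72 and 8.79, a log2 fold change of 0.11 (adjusted p = 0.69). The groups did not overlap for either subunit, higher for RAB3GAP2 and lower for RAB3GAP1, as for 21.7% and 19.1% of all genes. The difference between the changes was not tested.

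Among the 12 Rab30 to Rab39 GTPases, which the symbol prefix took in, RAB30 stood out. This Golgi Rab had log2 intensities of 6.01 and 6.38 with ERG and 5.19 and 5.61 with vector, 1.74-fold higher (log2 fold change 0.80, standard error 0.19, unadjusted p = 0.0076, adjusted p = 0.37). In this probe set the first LNCap Vector array, at 5.19, lay below 5.25. Of its other 4 probe sets, 1 had a like value, 0.73 (5.70 and 5.94 against 5.07 and 5.12). The LNCap Vector arrays were dim there, so that change has no exact size. The rest had 0.27, 0.12 and -0.16, the last 2 of them dim. RAB30-DT, which starts beside RAB30 on the opposite strand, had 8.48 and 8.44 against 8.42 and 8.32, a log2 fold change of 0.09 (adjusted p = 0.75). RAB36 had 6.91 and 6.88 against 6.59 and 6.74 (log2 fold change 0.23, unadjusted p = 0.043, adjusted p = 0.50). The other 10 ran from -0.15 to 0.06, with RAB32 at 7.93 and 7.82 against 7.999 and 7.88 and RAB35 at 6.70 and 6.81 against 6.80 and 6.95. The non-coding STX17-DT had 7.58 and 7.67 against 7.61 and 7.61, a log2 fold change of 0.02.

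**Figure D4:**
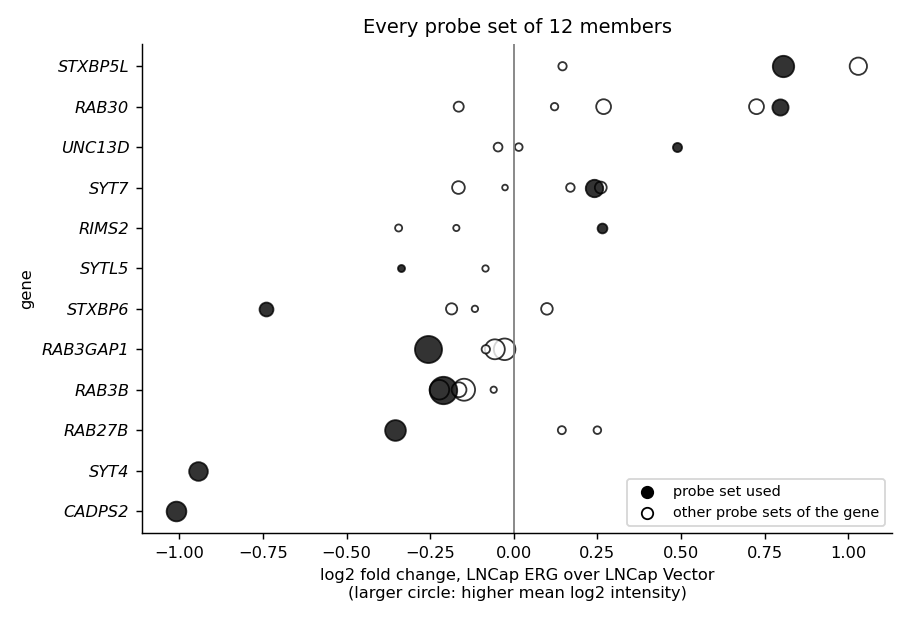
Log2 fold change (x axis) of every probe set of 12 members (y axis); the filled circle is the brightest probe set, which was used for the gene, open circles are the others, and area grows with the mean log2 intensity. The probe sets of RAB3B share a sign and those of STXBP5L run from 0.15 to 1.03. Those of RAB27B, RIMS2, STXBP6, RAB30, SYT7 and UNC13D lie on both sides of 0.

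The neuroendocrine markers of the list were dim throughout. CHGA gave 3.45 and 3.43 with ERG and 3.41 and 3.14 with vector, and CHGB gave 2.97 and 2.86 against 3.10 and 3.01. The granins SCG2 and SCG3 and the convertase chaperone SCG5 lay between 2.92 and 3.39 in all 4 arrays. None of the 5 had an unadjusted p under 0.05, where 5.61% of all genes were higher and 4.11% lower. At that share, the lack of a call does not set 5 genes apart. SYP, the synaptic vesicle membrane protein, gave 3.87 and 3.93 with ERG and 4.13 and 4.58 with vector, so that the LNCap ERG arrays were the lower ones (log2 fold change -0.45, standard error 0.16, unadjusted p = 0.035, adjusted p = 0.47). All values of SYP lay below 5.25. The size rested on the spread of the vector arrays: without the second it was -0.22 and without the first -0.68, and the unadjusted p reached 0.11 with 1 array left out in limma's fit. SV2A, SV2B and SV2C, the transporter-like vesicle proteins, were dim with overlapping groups, SV2C at 3.82 and 4.01 against 3.98 and 4.29. Of the neuroendocrine genes outside the list, ENO2 was bright, at 8.21 and 8.17 against 7.86 and 7.97 (log2 fold change 0.28, adjusted p = 0.42). DLL3 was also above the dim level in every array, at 7.11 and 6.91 against 7.11 and 7.06 (log2 fold change -0.08). INSM1 and NCAM1 were dim.

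Other genes of the pathway were taken from 6 further lists: other SNAREs, SM proteins with SNARE regulators, the exocyst, active zone and synaptic vesicle proteins, prohormone processing and granule cargo, and calcium sensors and motors of granules. Of the 101 of their 106 genes that were measured, none passed an adjusted p of 0.05. At an unadjusted p under 0.05, 5 were higher (4.95%) and 4 were lower (3.96%), near the 5.61% and 4.11% of all genes, and the median log2 fold change was -0.0035. PAM, which amidates neuropeptides in the granule, had 4.74 and 4.73 with ERG and 5.42 and 5.26 with vector (log2 fold change -0.60, standard error 0.09, adjusted p = 0.25), with the LNCap ERG arrays dim. The calcitonin gene CALCA of the same list had -0.19, and was dim. PPFIA4, a liprin of the active zone, had 6.22 and 6.37 against 5.62 and 5.84 (log2 fold change 0.56, adjusted p = 0.32), and SYNGR3, a synaptogyrin, had 0.50 (adjusted p = 0.31), dim in both groups. The related liprin PPFIA2, named after its values were seen, was lower, at 9.42 and 9.56 against 9.87 and 9.81 (log2 fold change -0.35, adjusted p = 0.37), and 20 of the 31 genes of that list lay below 0. Among the other SNAREs, 11 of 14 had a log2 fold change below 0, where 47.2% of all genes did, and 1 had an unadjusted p under 0.05: SEC22A, at -0.32 (adjusted p = 0.42). SEC22B, of the endoplasmic reticulum to Golgi route, had -0.16. The Rab3 effector RPH3A, dim, had 0.33 (adjusted p = 0.43) and the lysosomal SM protein VPS33A, dim with ERG, -0.31 (adjusted p = 0.45). The exocyst subunits EXOC6B and EXOC4 had 0.27 and 0.14. FER1L5 and FER1L4, taken with the list of calcium sensors and motors and dim, had 0.37 and 0.32.

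Of the stromal genes VIM, COL1A1, COL1A2 and DCN, VIM and COL1A1 were higher in the LNCap ERG arrays at an unadjusted p under 0.05. The same held for 5.61% of all genes. The log2 fold changes were 0.55 for VIM and 0.38 for COL1A1 (limma's adjusted p = 0.24 and 0.35). COL1A2 and DCN were dim in every array. Of the luminal genes, KLK2, TMPRSS2 and KLK3 were lower in both LNCap ERG arrays than in both vector arrays. That was also so for 19.1% of all genes. The log2 fold changes of KLK2, TMPRSS2 and KLK3 were -0.29, -0.20 and -0.13, and only KLK2 was at an unadjusted p under 0.05. FOLH1 was higher with the groups apart (0.08), and the groups of HOXB13, KRT8 and KRT18 overlapped. The part of the stromal and luminal genes in the values of the members was not tested. In bulk RNA, fewer cells of a kind and less RNA per cell cannot be told apart. Of the 3 members with the smallest p, the log2 fold changes with any 1 array left out stayed at -1.02 to -0.87 for SYT4, -1.14 to -0.88 for CADPS2 and 0.71 to 0.90 for STXBP5L. With the variance moderated along a trend and robustly, or without the dimmer genes, these 3 passed an adjusted p of 0.05; over the settings that keep all 4 arrays the adjusted p ran from 0.0021 to 0.55 for SYT4, from 0.0018 to 0.59 for CADPS2 and from 0.013 to 0.58 for STXBP5L. Centring the arrays on 22 housekeeping genes turned the split of all genes at an unadjusted p under 0.05 from 1098 higher and 804 lower to 363 and 1589, and that of the members from 6 and 7 to 4 and 9.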

How the data were processed

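RNA of 4 LNCaP samples was read on Affymetrix arrays. The deposited values are probe set intensities that the authors made with dChip and RMAexpress and annotated with Multiexperiment Viewer, with versions not given in the sources used here. The scale was read as linear from array medians of 14.0 to 14.4, and log2 was taken. Of 51965 probe sets, 39466 name 1 gene in the platform annotation; 838 with several genes and 11661 with none were left out, as were 2 with a missing value. Symbols were those of RefSeq for the 39413 probe sets matched by Entrez identifier. The brightest probe set stood for each gene. The comparison used limma 3.58.1 in R 4.3.3, with its lmFit and eBayes functions (2 residual and 3.23 prior degrees of freedom) across all genes, with Benjamini-Hochberg adjustment and a threshold of 0.05. The fit was tested on simulated data. Plots used matplotlib 3.10.9 in Python 3.11.15.

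The genes given with values are the members at an unadjusted p under 0.05 whose groups did not overlap, the 2 brightest of each role, 10 synaptic and neuroendocrine markers, and of each further list the 2 genes with the smallest p. STXBP6, PPFIA2 and other genes named only for contrast were picked with their values in view. The members and the lists were chosen with earlier results of these data known. The percentile for the dim level was set after the values were seen, since KRT10 of that list is bright here (11.06) and the 95th percentile was 6.37. As alternatives, moderation was made trended and robust, genes below the median were dropped, and the remaining ones were the mean of probe sets, plain probe sets (those without an s, x or a suffix), all probe sets tested together, quantile normalization again, housekeeping centring, the methods' t-test, a block for the replicate number and the omission of single arrays. Arrays have no read depth, and their number limits the precision.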

Additional observations from a re-analysis of the deposited data

How the results depend on the processing

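No member passed the adjusted threshold in the test as reported, and 3 did with trended and robust moderation (CADPS2, SYT4 and STXBP5L), 3 without the dimmer genes (those 3), 2 with housekeeping centring (CADPS2 and SYT4) and 1 with the mean of probe sets (SYT4). None did under the other alternatives or with any array left out, where the fit has 1 residual degree of freedom and a lone array is assumed to vary like the other group. The 13 members at an unadjusted p under 0.05 became 8 with the methods' t-test (7.92%, against 8.14% of all genes), where they had been 12.9% against 9.71%. Of these, the 7 lower ones became 4 with the t-test and 4 with the mean of probe sets. Of all 19583 genes, 737 and 826 were lower in these settings, against 804 in the test as reported. With the mean of probe sets, 8.91% of the members were called in either direction, against 9.28% of all genes. In these 2 settings the members' share was not above that of all genes, and in every other setting it was. The 7 lower members became 4 to 9 with single arrays left out. The 4 was reached without the first LNCap ERG array and without the second LNCap Vector array. The median log2 fold change of the members stayed between -0.10 (housekeeping centring) and 0.02. The deviations of same-numbered arrays from their group means had a correlation of 0.08 over genes. This single value cannot exclude pairing in a part of the genes. With the replicate block, 16 members (15.8%, against 9.74% of all genes) had an unadjusted p under 0.05 and 0 passed after adjustment.

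Of the 44 named members, 28 kept their sign in every alternative that gave a value, and CADPS2, SYT4, STXBP5L, RAB30, RAB3A, RAB3B and RAB3GAP1 were among them. With the mean of probe sets the sign turned for RAB27B (0.013), RIMS2 (-0.084), NSF (-0.074), STX3 (-0.041), STX6 (-0.0065), STX16 (-0.0053) and STX17-DT (-0.013). With housekeeping centring it turned for NSF (-0.072), SNAP23 (-0.049), STX3 (-0.061), STX6 (-0.054), STX16 (-0.078), STX17-DT (-0.077), SYT1 (-0.079) and SYTL1 (-0.070). With single arrays left out the ranges crossed 0 for NSF (-0.064 to 0.10), RAB3D (-0.042 to 0.0047), SCG2 (-0.22 to 0.050), SNAP25 (-0.21 to 0.19), STX3 (-0.038 to 0.10), STX6 (-0.056 to 0.13), STX16 (-0.073 to 0.10), STX17-DT (-0.030 to 0.062), SYT1 (-0.080 to 0.11), SYTL1 (-0.070 to 0.12), SYTL4 (-0.061 to 0.054), UNC13B (-0.034 to 0.0021) and VAMP2 (-0.25 to 0.24). The cause was not tested.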
